A study of Rattus norvegicus with 82 samples.

Results

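The right ventricle (RV) behind a failing left ventricle (LV) was compared with the RV of sham-operated rats. The libraries were chosen by the condition and ventricle named in their titles, which gave 7 RV libraries of the group AOB-F and 9 of the group Sham-F, 16 of the 82 libraries of the series. AOB-F rats carried a clip around the aorta that becomes constricting as the animal grows, so that the LV takes the pressure load, and were in the decompensated stage. Sham-F rats had the sham operation. By the labels both groups were 31 weeks old, 26 weeks after surgery, and all animals were the first-generation offspring of female Wistar Kyoto and male Lewis rats. AOB-F replicates 1 to 4 and Sham-F replicates 1 to 4 were labelled male, AOB-F replicates 5 to 7 and Sham-F replicates 5 to 9 female. Each library holds total RNA, depleted of ribosomal RNA, of cardiomyocytes that were freed from 1 ventricle of 1 rat with collagenase and separated from other cells by centrifugation, and each rat gave 1 RV and 1 LV library. Set beside these libraries were 7 LV AOB-F and 9 LV Sham-F libraries of the same animals and 6 RV libraries of the group PAB-F, rats with a clip around the pulmonary artery that loads the RV itself. The PAB-F rats, 4 males and 2 females, were labelled 28 weeks old and 22 weeks after surgery. For the compensated stage, 6 RV libraries of the group AOB-H and 7 of the group Sham-H were used. These rats were labelled 11 weeks old and 7 weeks after surgery. AOB-H held 2 males and 4 females, and Sham-H 3 males and 4 females. The study's own text gives the same times after surgery but other ages than the labels. Raw counts over all genes summed to between 11482907 and 16335647 in RV AOB-F and between 10618946 and 14421260 in RV Sham-F.

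A failing LV raises the pressure in the left atrium and the lung vessels, and through them the load on the RV, which also receives the hormones and cytokines that circulate in heart failure. Cardiomyocytes under load return to a fetal program, in which the natriuretic peptides Nppa and Nppb, skeletal actin (Acta1) and the slow myosin heavy chain Myh7 go up and the fast myosin heavy chain Myh6 goes down. In the adult ventricle Nppa, the precursor of atrial natriuretic peptide, is mostly silent, and its return is a common sign of wall stress. Cells exposed to interleukins also make acute phase proteins, among them Lcn2, a secreted protein that binds the iron carriers of bacteria, and Reg3b, a secreted lectin, through the transcription factors NF-kB and STAT3.

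Some libraries stood apart and are given here before the results. Eif2s3y and Ddx3 (as the table names it) had counts almost only in male rats, from 119 to 1196 and from 140 to 1524 in the other 41 male libraries of the series against 0 to 1 and 0 to 2 in the other 39 female libraries. LOC680227 had counts almost only in female rats, from 982 to 2060 against 0 to 8 in male libraries. RV AOB-F replicate 1, labelled male, had 422 counts of Eif2s3y, 773 of Ddx3 and also 692 of LOC680227. RV AOB-F replicate 6, labelled female, had 1010 counts of LOC680227 and also 321 of Eif2s3y and 394 of Ddx3. No other library of the 82 had both over 8 counts of LOC680227 and over 2 counts of Eif2s3y or Ddx3, and the LV libraries of both animals held the genes of their labelled sex alone. The RNA in these 2 RV libraries may be mixed, and the results are therefore also given without replicates 1 and 6. Separately, RV AOB-F replicates 6 and 7, both labelled female, were far above the other 5 AOB-F libraries in many of the genes below, as were their LV libraries. RV Sham-F replicate 4 was the highest sham library in many of the same genes. Counts without AOB-F replicates 6 and 7 were therefore added after the values were seen.

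**Figure D1:**
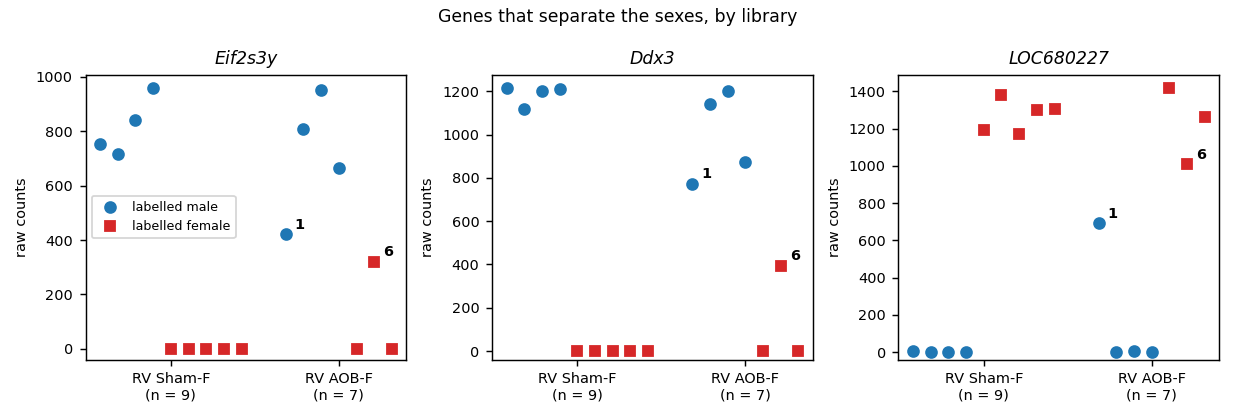
Raw counts (vertical axis, linear) of 3 genes that separate the sexes in the 9 RV Sham-F and 7 RV AOB-F libraries (1 point each, coloured by the labelled sex). AOB-F replicates 1 and 6, marked by their numbers, have counts of all 3 genes, whereas each other library has at most 8 counts of the genes of the other sex.

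The label of the cells was checked by marker genes. Cardiomyocyte markers (9 genes) summed to between 85885 and 132743 CPM (counts relative to the library total) in RV AOB-F and between 113590 and 148984 in RV Sham-F, and the 2 lowest sums were those of AOB-F replicates 6 and 7. The sum holds Myh6, itself a load gene, whose mean in these 2 libraries was 0.345-fold that of RV Sham-F. For Atp2a2, another of the markers, the ratio was 0.768. Macrophage markers (8 genes) summed to 129 CPM in replicate 6, 163 CPM in replicate 7 and at most 73.6 CPM in the other 5 AOB-F libraries, against 53.7 to 94.0 CPM in RV Sham-F. Fibroblast markers summed to between 305 and 444 CPM in RV AOB-F and between 153 and 509 CPM in RV Sham-F, with replicates 6 and 7 at 305 and 307 CPM. Endothelial markers gave 809 to 1209 CPM against 691 to 1177 CPM, and mural cell markers 496 to 585 CPM against 303 to 505 CPM. Neutrophil markers reached at most 3.32 CPM and markers of T and B cells at most 0.61 CPM in any of the 16 libraries. In such libraries more cells of a type and more RNA per cell cannot be told apart.

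Promoter sequences are shown for 3 of the genes that rose, the load gene Nppa and the acute phase genes Lcn2 and Reg3b. Each line gives the 250 bases before the start site, 5′ to 3′ on the strand of the gene, from RefSeq on the build GRCr8, with capitals marking matches to 1 of 3 motifs.
Nppa, chr5:163711934-163712183, plus strand: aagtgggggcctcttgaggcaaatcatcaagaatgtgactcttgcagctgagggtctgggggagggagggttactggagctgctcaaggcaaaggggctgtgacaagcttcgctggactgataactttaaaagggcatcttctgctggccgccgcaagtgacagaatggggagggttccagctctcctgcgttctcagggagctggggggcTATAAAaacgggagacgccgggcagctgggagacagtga
Lcn2, chr3:36081781-36082030, minus strand: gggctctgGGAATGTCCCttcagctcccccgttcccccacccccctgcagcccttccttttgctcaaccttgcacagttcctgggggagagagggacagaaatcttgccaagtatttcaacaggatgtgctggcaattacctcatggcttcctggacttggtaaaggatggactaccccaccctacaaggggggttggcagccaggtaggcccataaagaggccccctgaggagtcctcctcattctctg
Reg3b, chr4:112419526-112419775, plus strand: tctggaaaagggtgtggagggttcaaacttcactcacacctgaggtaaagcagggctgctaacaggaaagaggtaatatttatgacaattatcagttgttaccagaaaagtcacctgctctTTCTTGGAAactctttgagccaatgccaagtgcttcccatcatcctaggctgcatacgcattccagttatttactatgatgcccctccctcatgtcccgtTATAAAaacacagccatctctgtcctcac
The motifs, searched on both strands, were the TATA box (TATAAA), the STAT motif (TTCNNNGAA) and the NF-kB motif. The capitals mark a TATA box 39 bases before the start in Nppa and 29 bases before it in Reg3b, a STAT motif 129 bases before the start in Reg3b, and an NF-kB motif on the opposite strand 242 bases before the start in Lcn2. Among all 33469 promoter windows in the table, 12.9% held the TATA box, 7.67% the STAT motif and 6.33% the NF-kB motif. Of the 31 genes described next, 22 were found in that table, and 5 of them (22.7%) held the TATA box, 1 (4.55%) the STAT motif and 2 (9.09%) the NF-kB motif. A gene counted here if any of its windows held the motif, so its share is not on the same footing as the share of windows. A match is a description of the letters, not a binding site.

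The RV behind the failing LV differed from the sham RV in few genes, and those that passed the tests were higher. The study's criteria, a change of more than 2-fold (1 on the log2 scale) with a p no higher than 0.01 before adjustment and a mean above 50 normalized counts in the banded group, were met by 31 of 11954 genes tested (0.259%), all higher in RV AOB-F. Normalized counts are raw counts scaled to the mean library size after edgeR's TMM normalization. Because the mean was asked of the banded group alone, the criteria favour higher genes. With a mean above 10 counts, 49 genes were higher and 3 lower. An adjusted p under 0.05 (edgeR's quasi-likelihood test with Benjamini-Hochberg adjustment over all genes tested) was reached by 8 genes (0.0669%), again all higher. Among these, Lcn2, Nppa, Pik3c2g, Ncam1, Reg3b and Akip1 also met the criteria, and Crym rose by less than 2-fold. Without replicates 1 and 6 the criteria were met by 21 genes and 4 genes had an adjusted p under 0.05. Without replicates 6 and 7 these numbers were 6 and 1, the 1 gene being Crym. At an unadjusted p under 0.05, 397 genes (3.32%) were higher and 120 (1%) lower. This number depended on the model. The total was 517 here, 1194 in a fit to the 2 groups alone and 1023 in a fit to all RV libraries. In limma voom with sample quality weights it was 1172.

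Nppa was the load gene with the clearest rise. In the 7 RV AOB-F libraries it had 1026 to 4589 normalized counts with a median of 1680.0, and in the 9 RV Sham-F libraries 127 to 644 with a median of 294. Every AOB-F library lay above every sham library. The mean was 7.07-fold that of the shams (log2 fold change 2.82 ± 0.53 SE, adjusted p = 0.00246). The 2 highest AOB-F values, 4589 and 3822 normalized counts, were those of replicates 6 and 7, and replicate 1 had 1339. The ratio of the means was 6.29 without replicates 1 and 6 (adjusted p = 0.0291) and 4.77 without replicates 6 and 7, where the adjusted p was 0.636. Within males alone the log2 fold change was 1.67 and within females 4.04.

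The other load genes had smaller differences. Nppb, the precursor of brain natriuretic peptide and a plasma marker of heart failure, had 1676 to 4387 normalized counts (median 2826) against 1041 to 2616 (median 1467) in the shams. Of the AOB-F libraries 4 of 7 lay above all shams and replicates 4, 5 and 7 within the sham range, and its log2 fold change of 0.89 ± 0.22 had an adjusted p of 0.111 in edgeR. The adjusted p was 0.0325 in limma voom with sample quality weights, 0.0538 in edgeR with sex as a covariate and 0.931 in edgeR without replicates 1 and 6. Ankrd23, an ankyrin repeat protein that sits on titin and responds to stretch, had 395 to 1528 normalized counts against 156 to 629. It met the criteria (log2 fold change 1.56 ± 0.36) but not the adjusted threshold (adjusted p = 0.0546, against 0.00883 with sex as a covariate and 0.0292 in DESeq2), and 5 of 7 AOB-F libraries lay above all shams. The adjusted p of Ankrd23 was 0.458 without replicates 1 and 6 in edgeR and 0.0795 in limma voom with sample quality weights. Without replicates 6 and 7 its log2 fold change was 1.16 (unadjusted p = 0.00334). Tceal7, a nuclear protein, had 28.2 to 119 normalized counts against 11.4 to 41.1, with 6 of 7 AOB-F libraries above all shams (log2 fold change 1.73 ± 0.43, adjusted p = 0.132, and 0.0308 with sex as a covariate). Its adjusted p in edgeR was 0.677 without replicates 1 and 6 and 0.636 without replicates 6 and 7. In limma voom with sample quality weights it was 0.0795. It was one of the few genes in which replicates 6 and 7 were not the highest, at 92.1 and 28.2 normalized counts against 119 in replicate 2.

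The myosin heavy chains had log2 fold changes of opposite sign, and neither passed the adjusted threshold. Myh7, the slow form, had 91137 to 478932 normalized counts (median 246765) in RV AOB-F and 66718 to 207486 (median 95387) in RV Sham-F. Its log2 fold change was 1.03 ± 0.30 (adjusted p = 0.341, and 0.00883 with sex as a covariate). Without replicates 1 and 6 it was 1.01 (adjusted p = 0.995 in edgeR), and without replicates 6 and 7 it was 0.57 (unadjusted p = 0.0795). In limma voom with sample quality weights the adjusted p was 0.296. Myh6, the fast form, had 223779 to 702541 normalized counts against 462841 to 892468 (log2 fold change -0.51 ± 0.26, unadjusted p = 0.0547). The 2 lowest values of Myh6, 223779 and 237494, belonged to replicates 6 and 7, which also had the 2 highest values of Myh7, and the third lowest was replicate 2. Acta1, skeletal actin, had 6079 to 11574 normalized counts against 2270.0 to 9093, and sham replicates 3 and 4 alone reached the AOB-F range (log2 fold change 0.88 ± 0.35, unadjusted p = 0.0131). Here replicates 6 and 7 lay within the range of the other AOB-F libraries. Myl4, the atrial essential light chain, met the criteria at 13.7 to 155 normalized counts against 6.41 to 32.5. Its 2 highest values belonged to replicates 5 and 1, at 155 and 87 normalized counts. The atrial markers Myl7 and Sln had unadjusted p-values of 0.533 and 0.268, and Sln was lowest in replicate 7.

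Crym, which encodes mu-crystallin, a cytosolic protein that binds thyroid hormone, was the most even of the genes that rose. It had 278 to 350.3 normalized counts (median 324) in RV AOB-F and 138 to 241 (median 188) in RV Sham-F, with no overlap. The log2 fold change was 0.77 ± 0.13 (adjusted p = 4.94e-04), and the mean of replicates 6 and 7 was 1.71-fold that of the shams, against 1.7-fold for the other 5. Crym kept an adjusted p under 0.05 when any 1 of the 16 animals was left out, with a highest value of 0.0059, and without replicates 6 and 7. Without replicates 1, 6 and 7 the log2 fold change was 0.76 and the adjusted p 0.0891. In males it was 0.50 (adjusted p = 1.0) and in females 1.04.

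Lcn2 and Reg3b rose in the group mean, with values far above the shams in replicates 6 and 7 alone. Lcn2 had 1798 normalized counts in replicate 6, 1067 in replicate 7 and 27.2 to 57.3 in the other 5 AOB-F libraries, within the sham range of 30.9 to 71.6 except for the lowest. Its log2 fold change of 3.31 ± 0.56 (adjusted p = 4.94e-04) became -0.098 without replicates 6 and 7. Reg3b had 2522 and 3354 normalized counts in replicates 6 and 7, 5.69 to 66.9 in the others and 2.56 to 208 in the shams, where replicate 4 was the highest and the median was 9.9. Its log2 fold change was 4.67 ± 1.0 (adjusted p = 0.023), and -0.67 without replicates 6 and 7. Replicate 1, the other library that may be mixed, had 46 and 13 normalized counts of these genes, inside the sham range. Replicate 5, the third female, had 39.3 and 7.85.

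Pik3c2g, Ncam1 and Akip1 rose with replicates 6 and 7 the highest and with some of the other AOB-F libraries above the shams as well. Pik3c2g, a class II phosphoinositide 3-kinase, had 299.7 and 188 normalized counts in replicates 7 and 6, 13.6 to 55 in the others and 2.44 to 32.5 in the shams, with 5 of 7 AOB-F libraries above all shams (log2 fold change 2.79 ± 0.58, adjusted p = 0.0178). Ncam1, a cell adhesion molecule, had 1489 and 1453 normalized counts in replicates 6 and 7, 196 to 339 in the others and 81.6 to 296 in the shams (log2 fold change 2.19 ± 0.46, adjusted p = 0.0178). Sham replicate 4 was the highest sham library, and every AOB-F library lay above the sham median of 111. Akip1, a protein that interacts with protein kinase A, had 57 to 192 normalized counts against 36.6 to 63.7, with 6 of 7 AOB-F libraries above all shams (log2 fold change 1.31 ± 0.29, adjusted p = 0.0418). The single exception was replicate 1 with 57. Without replicates 6 and 7 the log2 fold changes of the 3 genes were 1.36, 0.88 and 0.89, with adjusted p-values of 1.0.

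**Figure D2:**
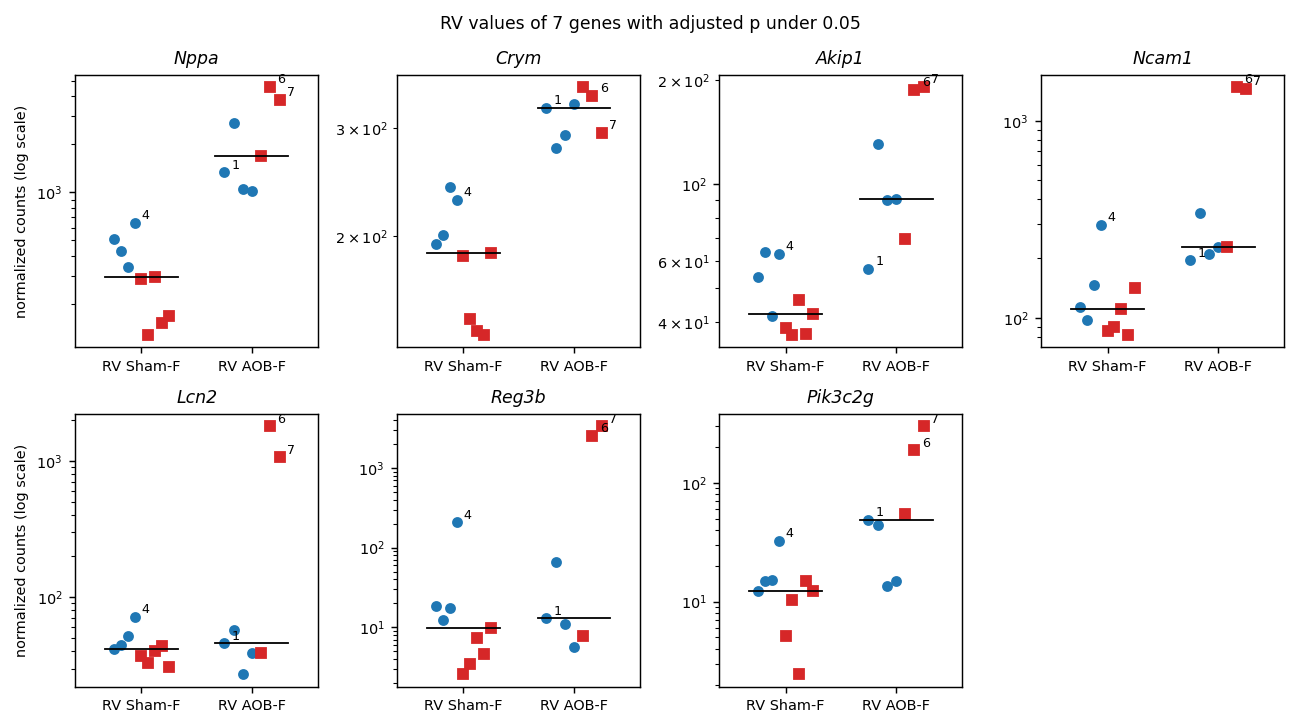
Normalized counts (vertical axes, log scale) of 7 genes with an adjusted p under 0.05 in the RV Sham-F and RV AOB-F libraries (1 point each, coloured by the labelled sex, lines at the medians). Nppa and Crym show no overlap between the groups, and AOB-F replicates 6 and 7 stand far above the other 5 AOB-F libraries in Lcn2, Reg3b and Ncam1.

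Several of these calls depended on the model or on single libraries. With all libraries kept, limma voom with sample quality weights gave Lcn2 a log2 fold change of 0.79 (adjusted p = 0.595) and Reg3b 1.45 (adjusted p = 0.65), and the calls of Ncam1 and Akip1 ended there too (0.172 and 0.236). In an edgeR fit to the 2 groups alone, the adjusted p-values of Lcn2, Reg3b, Pik3c2g, Ncam1 and Akip1 were 0.179, 0.201, 0.0852, 0.0852 and 0.0523, while Nppa and Crym passed both alternatives. Leaving out replicate 6 ended the call of Lcn2 (log2 fold change 2.25, adjusted p = 0.0511). Leaving out either replicate 6 or 7 ended the calls of Pik3c2g, Ncam1, Reg3b and Akip1, with adjusted p-values of up to 0.276, 0.342, 0.276 and 0.439, and leaving out replicate 2 also ended that of Akip1 (0.112). Leaving out 1 sham animal ended the call of Pik3c2g for 4 of the 9 (replicates 1, 5, 6 and 7), of Ncam1 for 6 (1, 2, 5, 6, 7 and 8) and of Reg3b and Akip1 for 8 each (every replicate but 4). The highest adjusted p-values were then 0.0751, 0.0706, 0.0835 and 0.137. Without sham replicate 4, the count of genes with an adjusted p under 0.05 was 14 in place of 8, and the log2 fold change of Reg3b was 6.46. Without replicates 1 and 6, Lcn2, Crym and Nppa kept an adjusted p under 0.05, and Pik3c2g, Ncam1, Reg3b and Akip1 had 0.0649, 0.177, 0.0649 and 0.186.

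Across the 31 genes that met the criteria, replicates 6 and 7 were the 2 highest RV AOB-F libraries for 27. Replicate 6 was above all 9 shams for 30 of the 31 genes and replicate 7 for 28, replicate 2 for 16, replicate 5 for 10, replicate 3 for 9, replicate 1 for 7 and replicate 4 for 3. All 31 log2 fold changes stayed positive without replicates 1 and 6, with a median of 1.28 against 1.43 with all libraries. Without replicates 6 and 7, 26 were positive with a median of 0.53, and 8 had an unadjusted p of at most 0.01. The exceptions to the common order were few. Habp2, a plasma protease that binds hyaluronan, had 161 and 161 normalized counts in replicates 2 and 3, 119.8 in replicate 6 and 50.5 in replicate 7. Tspan11, a tetraspanin, was highest in replicate 3 (158) and lowest in replicate 7 (18.8), against 12.8 to 71.1 in the shams.

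In further genes of the 31, replicates 6 and 7 were again the 2 highest AOB-F libraries. Sema5a, a semaphorin that guides axons and vessels, had 4667 and 5784 normalized counts in replicates 6 and 7 and 1102 to 1696 in the others, against 1001 to 1694 (log2 fold change 1.10 ± 0.29, adjusted p = 0.232). Fam46a, a noncanonical poly(A) polymerase, had 228 and 243 in these replicates and 29.7 to 49.1 in the others, against 16.1 to 43. Cdo1, which oxidizes cysteine on the way to taurine, had 323 and 202 and 34 to 63.3 in the others, against 25.2 to 67.8. In these 3 genes the 5 other AOB-F libraries overlapped the shams. Ptgfr, the receptor of prostaglandin F2 alpha, had 1838 and 1760.4 in replicates 6 and 7 and 365 to 670.2 in the others, against 291 to 934. Paqr8 (a membrane progestin receptor), Sorcs1 (a sorting receptor) and Tgm1 (a transglutaminase) had log2 fold changes of 1.58 ± 0.48, 1.36 ± 0.43 and 1.43 ± 0.51, and replicates 6 and 7 had 243 and 307 normalized counts of Tgm1 against 11.9 to 55 in the others. Without replicates 6 and 7, the log2 fold changes of Sema5a, Fam46a, Cdo1 and Ptgfr were 0.23, 0.33, 0.45 and 0.32.

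**Figure D3:**
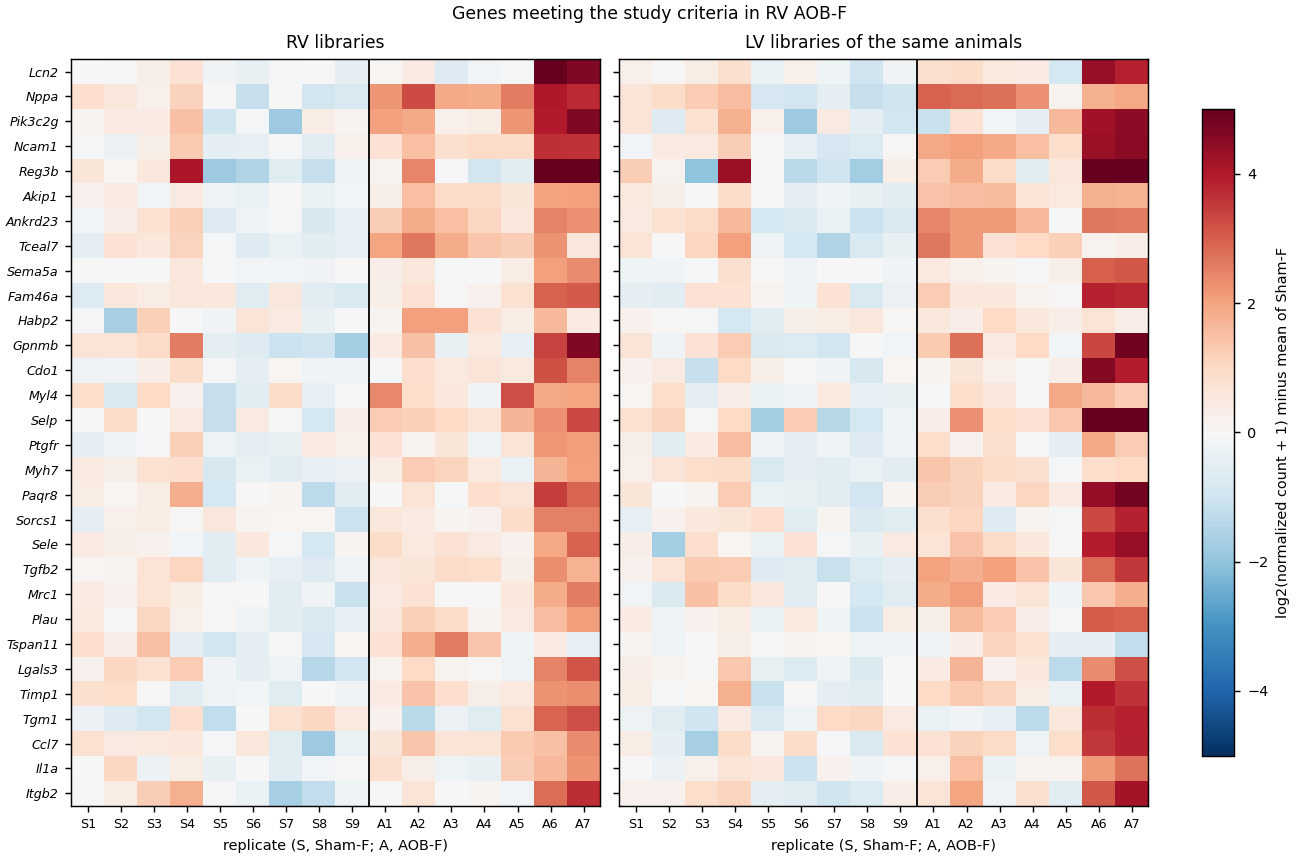
Log2 (normalized count + 1) of 30 of the 31 genes that met the criteria in RV AOB-F, minus the mean of the sham libraries of the same ventricle, in the RV libraries (left) and the LV libraries of the same animals (right). Columns are replicates of Sham-F (S) and AOB-F (A), and colours are limited to 5 in either direction. The columns A6 and A7 are the darkest in both ventricles, and S4 stands out among the shams.

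Of all genes tested, 7 (0.0586%) had every RV AOB-F library above every sham, and 3 (0.0251%) every AOB-F library below. The 7 were Nppa, Crym, Penk, Actn1, Mmp19, Prss23 and RGD1562136, and Nppa alone of them met the criteria. Penk, the precursor of enkephalin opioid peptides, had 390.4 to 725 normalized counts against 161 to 387 (log2 fold change 0.88 ± 0.31, adjusted p = 0.69). RGD1562136 had 95 to 109.9 against 34.6 to 88.6 (log2 fold change 0.60 ± 0.17, adjusted p = 0.301). In both, replicates 6 and 7 lay among the other AOB-F libraries. Actn1 (an actin crosslinker), Mmp19 (a matrix metalloproteinase) and Prss23 (a serine protease), which the naming rule did not choose, had log2 fold changes of 0.44, 0.82 and 0.39 with adjusted p-values of 0.99 or above. The 3 genes with every AOB-F library below the shams were Mir30e, C2cd5 and Lsamp, also outside the rule, with log2 fold changes of -0.94, -0.20 and -0.24. Mir30e had means of 8.77 and 16.8 normalized counts, so its value rests on few counts.

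Genes were then grouped in lists by function. Over all 11954 genes tested, 6287 had a positive log2 fold change and 397 (3.32%) were higher at an unadjusted p under 0.05. The counts of every list below are to be read beside these. All 22 load genes tested had positive log2 fold changes with a median of 0.52, against 0.0087 over all genes tested. Of the 22, 2 (Nppa and Ncam1) passed the adjusted threshold, and 12 had an unadjusted p under 0.05 and were higher. Without replicates 6 and 7 the median was 0.40 and 8 had such a p, whereas over all genes the number of higher genes at that p fell from 397 to 139. Without replicates 1 and 6 the median was 0.50 and 10 had such a p. The list was chosen with earlier results of these data known, as were all lists below.

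The inflammatory list had the highest median, with replicates 6 and 7 leading. Of 31 genes of NF-kB targets and inflammatory mediators, 0 passed the adjusted threshold, 12 had an unadjusted p under 0.05 and were higher, and the median log2 fold change was 0.60, or 0.30 without replicates 6 and 7, where 6 had such a p, and 0.59 without replicates 1 and 6, where 10 had it. Ccl20, a chemokine for lymphocytes and dendritic cells, had 121 and 67 normalized counts in replicates 6 and 7, and at most 6 in the other 5 and 6.69 in the shams. Csf1, the growth factor of macrophages, had 283 to 604 against 182 to 312, with 6 of 7 AOB-F libraries above all shams (log2 fold change 0.65 ± 0.22, adjusted p = 0.655). Ccl7, a monocyte chemokine, and Il1a, interleukin 1 alpha, met the criteria with log2 fold changes of 1.18 ± 0.42 and 1.02 ± 0.37. Of 15 leukocyte adhesion genes, 5 had an unadjusted p under 0.05 and were higher (median log2 0.46), and 1 without replicates 6 and 7 (median 0.16). Selp and Sele, the selectins that endothelium shows to leukocytes, met the criteria. Selp had 26.2 to 165 normalized counts against 6.41 to 31.2, with 6 of 7 AOB-F libraries above all shams, and Sele 32.4 to 223 against 14.9 to 41.2. Itgb2, the beta 2 integrin of leukocytes, had 128 and 239 in replicates 6 and 7 and 15.7 to 27.5 in the others, against 4.87 to 62.1. Of 27 acute phase genes, 2 (Lcn2 and Reg3b) passed the adjusted threshold and 5 had an unadjusted p under 0.05 and were higher (median 0.27), against 1 gene without replicates 6 and 7 (median 0.045) and 3 without replicates 1 and 6 (median 0.29). Macrophage markers were high in the same libraries. Mrc1, the mannose receptor of macrophages and itself 1 of the 31 genes, had 329 and 541 normalized counts in replicates 6 and 7 and 90.9 to 153 in the others, against 42.1 to 147. In all, 4 of the 8 macrophage markers had an unadjusted p under 0.05 and were higher, and their part in the inflammatory values was not tested.

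The matrix lists had positive medians too. The median log2 fold change was 0.44 over 21 matricellular genes, 0.36 over 18 genes of matrix turnover and 0.27 over 18 collagens and fibrillar matrix genes, of which 6, 6 and 2 had an unadjusted p under 0.05, all higher, and 0 passed the adjusted threshold. Without replicates 6 and 7, 0 genes of these 3 lists were higher with such a p, and without replicates 1 and 6 the numbers were 4, 4 and 2. Gpnmb, a membrane glycoprotein of macrophages and other cells, had 1554 and 664 normalized counts in replicates 7 and 6 and 47.1 to 173 in the others, against 18.6 to 374 in the shams, where replicate 4 was the highest. Spp1, osteopontin, had the same order, with 2302 and 942 in replicates 7 and 6, 19.6 to 115 in the others and 1061 in sham replicate 4 at a sham median of 15.8. Tnc, tenascin C, had 159.8 and 101 in replicates 7 and 6 and at most 13.7 in the others, against at most 15.8 in the shams. Timp1 (an inhibitor of metalloproteinases), Plau (urokinase) and Lgals3 (galectin-3) met the criteria with log2 fold changes of 1.32 ± 0.46, 1.03 ± 0.34 and 1.30 ± 0.44. Tgfb2, a growth factor of the TGF-beta family, met them with 766 and 501 normalized counts in replicates 6 and 7 and 184 to 295 in the others, against 96.6 to 323. Fibroblast marker sums in replicates 6 and 7 were the 2 lowest of the 7 AOB-F libraries, at 305 and 307 CPM, but above the RV Sham-F median of 244 CPM. The part of fibroblasts in the matrix values was not tested.

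Ribosomal protein genes were alike in sign. All 27 ribosomal protein genes tested had positive log2 fold changes, with a median of 0.27, and 10 had an unadjusted p under 0.05, while 0 passed the adjusted threshold and 0 of the 27 had such a p without replicates 6 and 7 (median 0.13). Without replicates 1 and 6 the median was 0.20 and 4 had it. Over all 11954 genes tested, 6287 were positive and 397 were higher at that p, or 139 without replicates 6 and 7. Rpl3 had 2109 and 2182 normalized counts in replicates 6 and 7 and 651 to 839 in the others, against 483 to 875. Reads of ribosomal protein genes can be shared with their processed copies, so single values are uncertain. Of 22 genes of the amino acid response, 7 had an unadjusted p under 0.05 and were higher (median 0.12), and 1 without replicates 6 and 7. Asns, asparagine synthetase, had 143 normalized counts in replicate 6 and 41.1 in replicate 7 and at most 16 in the others, against at most 15.3 in the shams.

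The lists of contractile and energy genes had medians close to that of all genes. The median log2 fold change was -0.013 over 17 sarcomere genes, -0.045 over 13 calcium cycling genes and 0.0084 over 30 genes of oxidative phosphorylation. The sarcomere genes Myh7 and Acta1 had an unadjusted p under 0.05, and 0 genes of the other 2 lists. Atp2a2, the calcium pump of the sarcoplasmic reticulum, had 286693 to 375891 normalized counts against 328571 to 474397 (log2 fold change -0.17 ± 0.17). Of 33 genes of fatty acid oxidation, 5 had an unadjusted p under 0.05 and were higher (median 0.077), 3 without replicates 1 and 6 and 0 without replicates 6 and 7 (median 0.031). Slc27a1, a fatty acid transporter, had 6027 and 4049 in replicates 7 and 6 and 2498 to 3324 in the others, against 2361 to 3527. Of 18 channel genes 1 had an unadjusted p under 0.05 and was lower, Kcnd3, a subunit of the transient outward potassium channel. It had 727 and 824 normalized counts in replicates 7 and 6 and 1073 to 1530.0 in the others, against 1244 to 1770.4 (log2 fold change -0.43 ± 0.17, adjusted p = 0.862). Of 23 interferon genes, 15 hypoxia genes, 16 clock genes, 21 genes of atrophy and autophagy and 18 heat shock genes, none had an unadjusted p under 0.05 in edgeR, with medians between -0.071 and 0.012. The other lists (branched chain and ketone use, glucose use, TGF-beta and growth factors, adrenergic signalling, renin-angiotensin and endothelin, oxidative defence, immediate early genes, cell cycle and chamber genes) had medians between -0.083 and 0.21 with at most 3 genes higher at that p in any of them. The chamber genes Irx1 and Irx2, transcription factors of the LV, had at most 13.7 and 18.8 normalized counts in RV AOB-F and at least 96.9 and 112 in LV Sham-F.

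**Figure D4:**
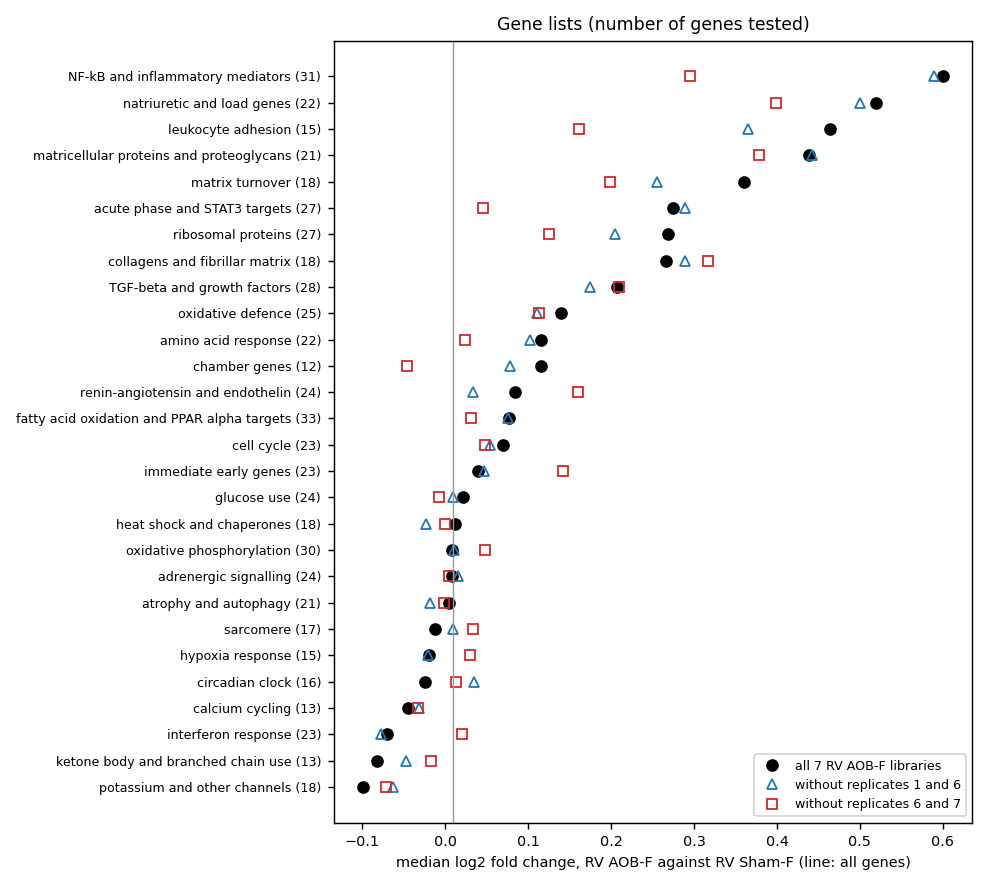
Median log2 fold change of each gene list in RV AOB-F against RV Sham-F (horizontal axis, number of genes tested in brackets) with all libraries, without replicates 1 and 6 and without replicates 6 and 7. The vertical line marks the median of all genes tested. The inflammatory list has the highest median with all libraries (0.60) and falls to 0.30 without replicates 6 and 7, whereas the load genes go from 0.52 to 0.40.

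The banded LV of the same animals was then set beside the RV. Between LV AOB-F and LV Sham-F, 1541 genes (12.9%) had an adjusted p under 0.05 and 145 met the criteria. All 31 genes that met the criteria in the RV had positive log2 fold changes in the LV, 24 of them with an adjusted p under 0.05 there. The 2 lists shared 23 genes, 74.2% of the RV list and 15.9% of the LV list. The log2 fold change was larger in the LV for 21 of the 31, with a median of 2.03 against 1.43 in the RV. Replicates 6 and 7 were also the 2 highest LV AOB-F libraries for 24 of the 31 genes, so the 2 ventricles are not independent here. Lcn2 had 3585 and 2567 normalized counts in LV replicates 6 and 7 and 92.3 to 323 in the others, against 85.3 to 302 in LV Sham-F. Reg3b had 9126 and 12439.8 in the same animals, and at most 58.5 in the others. Nppa had another order, with 20531 to 32334 in LV replicates 1 to 4 and 4825, 14413 and 16028 in replicates 5, 6 and 7, against 1919 to 12454 in LV Sham-F. The RV of replicates 6 and 7 had the highest Nppa values of the RV libraries, while their LV values were below those of replicates 1 to 4.

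Whether a gene responded differently in the 2 ventricles was tested by the difference between the LV and RV log2 fold changes. No gene had an adjusted p under 0.05 in edgeR (1161 with an unadjusted p under 0.05), against 5 in DESeq2 and 311 in limma voom with sample quality weights, and 17 in edgeR without Sham-F replicate 3. Without AOB-F replicates 1 and 6 the count was 0 in edgeR as well. Crym had the smallest p of all. Its LV values were 217 to 283 normalized counts in AOB-F and 199 to 327 in Sham-F (log2 fold change -0.03), and the difference from the RV was -0.80 ± 0.18 (adjusted p = 0.221). With the animal as a block in a fit to both ventricles of AOB-F and Sham-F the difference was -0.79 (adjusted p = 0.086). The medians were 188 in the RV and 252 in the LV of Sham-F rats, and 324 and 260.2 normalized counts in AOB-F rats.

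**Figure D5:**
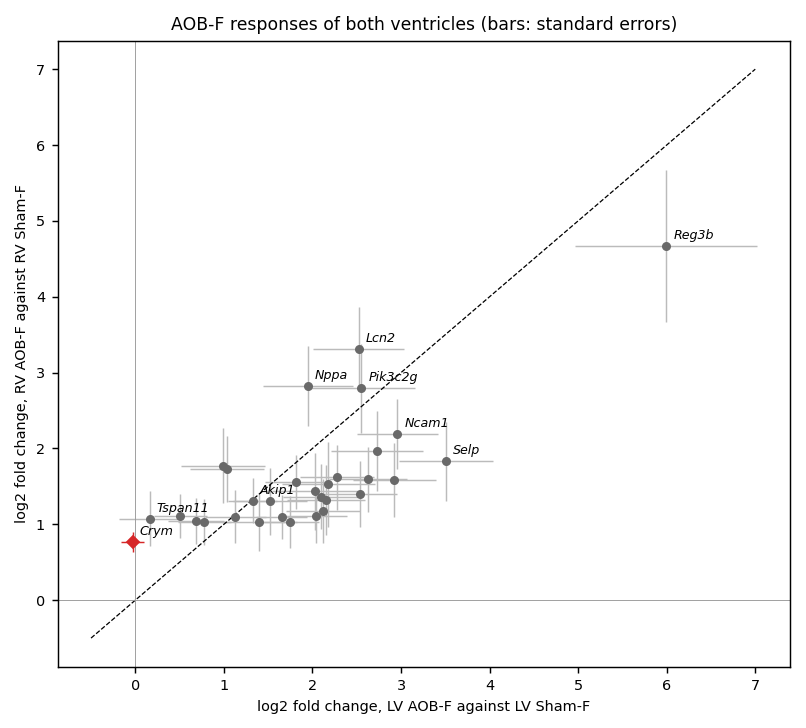
Log2 fold change of 30 of the 31 genes that met the criteria (dark points) and of Crym (red) in RV AOB-F against RV Sham-F (vertical axis) and LV AOB-F against LV Sham-F (horizontal axis), with standard errors and a dashed line of equality. All 30 lie above 0 in both ventricles, 21 of them below the line, and Crym lies near 0 in the LV.

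The RV loaded directly by pulmonary artery banding differed from the RV behind the failing LV in 497 genes (4.16%) at an adjusted p under 0.05, 295 of them higher in PAB-F. The animals differed in age, time since surgery and share of females by the labels, which cannot be told apart from the kind of load. The count was 245 without AOB-F replicates 1 and 6 and between 79 and 716 when 1 PAB-F animal was left out, with the 79 falling to the fit without PAB-F replicate 1 and 215 without replicate 2. Both RV groups were set against the same RV Sham-F libraries, so their own values are given side by side. Of the 31 genes, 9 differed between PAB-F and AOB-F at that threshold, 6 of them higher in PAB-F (Nppa, Akip1, Ncam1, Ankrd23, Tceal7 and Tgfb2). Nppa had 909.6 to 100875 normalized counts (median 8677) in RV PAB-F, against 1026 to 4589 in RV AOB-F (log2 difference 3.35 ± 0.59, adjusted p = 1.68e-04). Ankrd23 had 575 to 5959.8 in PAB-F (log2 difference 1.62, adjusted p = 0.00838) and Akip1 64.9 to 634 (log2 difference 1.33, adjusted p = 0.00586). Among the 3 lower in PAB-F were Lcn2 and Pik3c2g, with log2 differences of -2.69 and -3.75, and the PAB-F libraries held at most 115 and 12.4 normalized counts of them. Both were led by AOB-F replicates 6 and 7, but the other 5 AOB-F libraries stood differently in the 2 genes. In Lcn2 they had 27.2 to 57.3 normalized counts, not above the 41.5 to 115 of PAB-F. In Pik3c2g they had 13.6 to 55, above every PAB-F library.

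Some genes outside the 31 set the 2 kinds of RV apart. Penk, which had no overlap between RV AOB-F and RV Sham-F, reached 416 to 4630.1 normalized counts in PAB-F (log2 difference 1.89, adjusted p = 2.64e-04), and Nppb 3822 to 17153 (log2 difference 1.57, adjusted p = 3.49e-05). Cilp, a matrix protein of cartilage and scar, had 47.4 to 494 in PAB-F against 7.05 to 51.8 in AOB-F and 9.9 to 48.8 in the shams (log2 difference 2.27, adjusted p = 0.00166). Fap, a protease of activated fibroblasts, had 53.6 to 234 against 17.7 to 46.6 (log2 difference 1.89, adjusted p = 3.49e-05), and Unc13a, a vesicle priming protein, 9.27 to 83.4 against 4.78 to 14.1. Ppp1r3d, a glycogen-targeting subunit of protein phosphatase 1, was lower in PAB-F, at 826 to 1446 against 1739 to 2622, with no overlap. Crym did not separate the 2 groups, with 269 to 386 normalized counts in PAB-F and a log2 difference of -0.039 ± 0.14.

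At the earlier, compensated stage (AOB-H against Sham-H, 11 weeks of age and 7 weeks after surgery) fewer RV genes stood out than with all libraries of the failing stage. The banded groups of the 2 stages differed in age and share of females, which cannot be told apart from the stage. No gene had an adjusted p under 0.05 in edgeR, and 171 of the 11954 genes tested had an unadjusted p under 0.05. At the failing stage 517 had such a p, but 211 without AOB-F replicates 6 and 7 and 180 without 1, 6 and 7. None of the 31 genes was among the 171, which at so small a share over all genes says little about them. Their median log2 fold change was 0.15. Nppa had 329 to 899.6 normalized counts in RV AOB-H and 141 to 436 in RV Sham-H (log2 fold change 0.81 ± 0.57), and Penk 239 to 1354 against 186 to 294. Tested directly, 0 genes differed between the responses of the 2 stages at an adjusted p under 0.05 in edgeR, DESeq2 or limma voom. Without AOB-F replicates 1 and 6 the count in edgeR was 0 too. With all libraries 245 of the 11954 genes tested had an unadjusted p under 0.05 in edgeR, and 18 of the 31 were among them. The 31 genes were chosen by the RV AOB-F and RV Sham-F libraries that also enter this difference and those between bandings, ventricles and sexes, so their numbers there are descriptions.

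Female and male rats were compared because both groups hold both. The difference between the female and the male AOB-F response of the RV had an adjusted p under 0.05 for 25 genes, 24 higher in females. Among them were Eif2s3y, Ddx3 and LOC680227, the genes by which replicates 1 and 6 go against their labels. Without replicates 1 and 6, 6 genes passed, among them Reg3b, Gpnmb, Spp1, Lcn2 and Tyrobp, an adaptor protein of myeloid cells, with log2 differences between 4.27 and 9.51. The female values then rest on replicates 5 and 7, of which replicate 5 was in or near the sham range in Reg3b (7.85 normalized counts), Lcn2 (39.3), Gpnmb (47.1) and Spp1 (19.6). Sham replicate 4, a male, had the highest sham values of Reg3b, Spp1 and Gpnmb and enters the male side of the difference, and without it 8 genes passed in place of 25. Leaving out female replicate 5 gave 210 genes, and leaving out replicate 6 or 7 gave 8 or 9. Within females alone 169 genes met the criteria and within males 4, and of the 31 genes 31 had positive log2 fold changes in females (median 2.25) and 21 in males (median 0.22). For Nppa and Crym the log2 differences between the female and the male response were 2.37 (adjusted p = 0.407) and 0.54 (adjusted p = 0.464).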

How the data were processed

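RNA of rat cardiomyocytes was sequenced by the authors in 82 libraries of 41 rats. The authors trimmed the reads with Trim Galore, aligned them with STAR to the rat genome Rnor6.0, took gene counts from featureCounts and deposited raw counts of 17337 genes, counts normalized by DESeq2 1.28.1 (not used here) and FPKM values. The deposited FPKM values entered no test. The table also came with the authors' own comparisons, not used here.

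Tests were run here on the raw counts with edgeR 4.0.16 (R 4.3.3) by its quasi-likelihood test in 1 model of all libraries with group means, or means of each group and sex, TMM factors, filterByExpr (11954 genes) and Benjamini-Hochberg adjustment. A standard error is the log2 fold change over the root of the F statistic. DESeq2 1.42.0, limma 3.58.1 and the other settings of the closing section were alternatives, and the functions were tested on simulated data. "Rose" and "fell" are used only at an adjusted p under 0.05. Replicates are separate rats by the labels. Totals were between 6675287 and 19665439 counts per library, and no 2 libraries of a group were copies (chi-square per gene of at least 4.21).

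The genes named are those with an adjusted p under 0.05 or meeting the criteria, the 2 with the smallest p of each of 28 lists, 11 fixed genes (Nppa, Nppb, Acta1, Myh6, Myh7, Atp2a2, Penk, Irx1, Irx2, Tceal7 and Cilp) and the 5 with the smallest p for each tested difference, 91 in all (2 of them are not reported here), with a few others said to be outside the rule. The libraries compared, the lists and the rule were chosen with earlier results of these data known. Of the genes of the lists 17 were not found under their names among the deposited genes, and others were removed by the filter on low counts.

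The labels tie each RV library to the LV library of 1 rat. Deviations of the 2 from their group means correlated at between 0.082 and 0.592 over the 7 AOB-F rats (median 0.297). Pairs of different AOB-F animals gave -0.438 to 0.490 (median -0.041). Only 4 of the 7 RV libraries correlated highest with the LV library of their own animal. The fit with the animal as a block is given for the difference between the ventricles.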

Additional observations from a re-analysis of the deposited data

Results flagged for a closer look

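The values of each of 89 named genes were looked at in RV AOB-F and in RV Sham-F, 178 sets of values in all, and 23 sets had a library whose gap to the nearest of the others was large for the range (Dixon's test). The cutoffs, made for normal values, were applied to counts without log scaling, so no chance rate is given. The 23 lay mostly in 2 libraries, AOB-F replicate 7 (highest for 8 genes and lowest for 1) and Sham-F replicate 4 (highest for 10). Such a gap is missed where 2 libraries stand apart together, as AOB-F replicates 6 and 7 did in Lcn2 and Reg3b. In normalized counts, AOB-F replicate 7 stood apart in Ccl7 (224), Gpnmb (1554), Sele (223), Selp (165), Csf1 (604), Sparc, a secreted matrix protein (10236), Cybb, the oxidase subunit of phagocytes (190.4), and Spp1 (2302), and at the low end in Trim63, a ubiquitin ligase of muscle atrophy (2537). AOB-F replicate 6 stood apart in Asns (143) and replicate 2 in Fap (46.6).

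Sham-F replicate 4 stood apart in Ncam1 (296), Pik3c2g (32.5), Reg3b (208), Cdo1 (67.8), Gpnmb (374), Paqr8 (87.9), Ptgfr (934), Sema5a (1694), Trim54, a sarcomere-bound ubiquitin ligase (4454), and Spp1 (1061). Sham-F replicate 2 stood apart in Il1a (52.4) and replicate 7 in Nfil3, a transcription factor (431). What sets these animals apart was not tested.

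The AOB-F response of the RV differed between the sexes in 25 genes at an adjusted p under 0.05 in edgeR. As female minus male log2 difference, the values given here were 9.94 for Reg3b, 9.02 for Spp1, 5.68 for Ccl20, 5.44 for Il1rn, 5.36 for Gpnmb, 5.04 for Lcn2, 4.70 for Tyrobp, 4.30 for Itgb2 and 3.99 for Itgam. They were 3.69 for Paqr8, 3.62 for Pik3c2g, 3.55 for Mpeg1, 3.47 for Lyz2, 3.44 for Lgals3, 3.12 for Ptpn6, 3.07 for Cotl1, 1.81 for Sema5a, 1.70 for Clstn2, 1.36 for Fhl1, 1.22 for Slc44a2 and 0.87 for Parp3. The 3 genes that separate the sexes had 10.39 (Ddx3), 10.03 (Eif2s3y) and -6.04 (LOC680227), and the 2 libraries that carry genes of both sexes enter all of these values. Without AOB-F replicates 1 and 6 6 genes passed, with 9.51 (Reg3b), 8.93 (Spp1), 5.57 (Tyrobp), 5.37 (Gpnmb) and 4.27 (Lcn2) among them.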

How the results depend on the processing

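Of RV AOB-F against RV Sham-F, 31 genes met the criteria and 8 had an adjusted p under 0.05, and both counts stayed within 1.5 times of these with RLE or upper quartile scaling, without the filter on low counts, in DESeq2 and in a fit to the RV libraries alone. The criteria were met by 7 genes with the adjusted in place of the unadjusted p, 52 with a mean above 10 counts, 11 in limma voom with quality weights, 6 without AOB-F replicates 6 and 7, 7 without replicates 1, 6 and 7, 4 within males and 169 within females. Lower in RV AOB-F were 3 of the 52, 2 of the 11 and 13 of the 169. Leaving out 1 AOB-F animal gave 16 to 45 (18 without replicate 6 and 16 without replicate 7) and 1 sham animal 24 to 45. The adjusted threshold was passed by 4 genes in voom, 4 without AOB-F replicates 1 and 6, 1 without 6 and 7, 0 without 1, 6 and 7, 15 with sex as a covariate, 2 in a fit to the 2 groups alone, 1 within males (LOC680227) and 241 within females. Leaving out 1 AOB-F animal gave 3 to 11, and 1 sham animal 4 to 14. The settings without AOB-F replicates 6 and 7, without 1, 6 and 7 and within each sex were added after the data were seen.

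The difference between the ventricles was passed by 0 genes, 311 in voom, 5 in DESeq2 and 0 to 17 when 1 sham animal was left out. The difference between RV AOB-F and RV PAB-F was passed by 497 genes, 1362 in voom, 245 without AOB-F replicates 1 and 6, 250 to 490 when 1 AOB-F animal was left out (315 without replicate 5, 330 without 6 and 250 without 7), 460 to 514 for 1 sham animal and 79 to 716 for 1 PAB-F animal. The difference between the sexes was passed by 25 genes, 1129 in voom, 45 in DESeq2, 6 without AOB-F replicates 1 and 6, 8 to 210 when 1 AOB-F animal was left out and 8 to 28 for 1 sham animal. The difference between the stages was passed by 0 genes under each setting run.

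Same-numbered RV AOB-F and RV Sham-F animals share only a number (correlations of their deviations from -0.085 to 0.124, and 2 of 7 highest with their own number). A replicate block gave 10 genes that met the criteria and 0 at the adjusted threshold, and 0 for RV AOB-F against RV PAB-F. The animal as a block changed no call of the difference between the ventricles, with 0 genes.

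Some named genes with an unadjusted p of 0.01 or less with all libraries changed sign. Without AOB-F replicates 6 and 7, without 1, 6 and 7, and within males, in this order, the log2 fold changes were -0.098, -0.13 and -0.33 for Lcn2, -0.67, -0.54 and -1.51 for Reg3b, -0.16, -0.14 and -0.85 for Gpnmb, -0.17, -0.078 and -0.90 for Tnc, -0.30, -0.38 and -0.34 for Tgm1, and -0.22, -0.19 and -0.83 for Itgb2. Within males alone they were -0.54 for Ccl20, -0.023 for Rpl3, -0.47 for Paqr8, -0.11 for Mrc1, -0.48 for Lgals3 and -0.17 for Il1a. Spp1, whose unadjusted p was 0.0362 with all libraries, had -1.37, -1.27 and -2.26 in the 3 settings, against 1.80 with all libraries. The cause was not tested. Depth was between 10618946 and 16335647 counts in these RV libraries, and genes at a few counts, such as Mir30e, carry large errors.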
